A study of Mus musculus with 4 samples.

Results

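The genes described here are Ankrd1, Ankrd23, Xirp1, Xirp2, Sprr1a, Csrp3 and Rcan1, which heart muscle cells are known to induce or use under stretch and stress. They were taken by symbol from the deposited gene tables, where all 7 were found among 17550 genes listed in any library. RNA was sequenced from the left ventricle of C57BL/6 mice aged 8 weeks, 3 days after an induced myocardial infarction. There was 1 library for each of 4 groups: infarcted tissue labelled Neil3-/-, non-infarcted tissue labelled Neil3-/-, infarcted wild-type tissue and non-infarcted wild-type tissue. Every group came from mice that had an infarction, so the non-infarcted tissue is not that of an unoperated heart. The labels name neither the Neil3 allele nor the number of mice behind a library. The 7 genes were chosen by symbol once RPKM ratios between these same libraries had been seen, so their levels and ratios are descriptions and carry no test.

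Muscle cells sense load at the Z-disc, where the giant protein titin is anchored, along titin's springs in the I-band, and at the intercalated discs that join cells end to end. Ankrd1 and Ankrd23 code for muscle ankyrin repeat proteins that bind the N2A segment of titin, and Ankrd1 protein also enters the nucleus, where it acts on transcription. Xirp1 and Xirp2 code for the Xin proteins, which bind actin filaments and lie at the intercalated disc. Csrp3 codes for muscle LIM protein, a Z-disc protein linked to cardiomyopathy in humans and mice. Rcan1 codes for an inhibitor of calcineurin, the calcium-activated phosphatase that drives NFAT factors, and its short form is transcribed from an inner promoter that NFAT activates. Sprr1a codes for a small proline-rich protein of the cornified envelope of skin, which rodent heart muscle cells also make after ischaemic stress and cytokines of the gp130 receptor family.

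Promoter windows from RefSeq, on build GRCm38.p6, were found for 6 of the 7 genes, in 9 windows that each reach from 250 bases before to 50 bases after a transcription start. The 4 shown are those of the 3 genes with the highest infarct ratios in both genotypes (Sprr1a, Xirp2 and, at its inner start, Rcan1), beside that of Ankrd1, the member with the most RPKM in 3 of 4 libraries. Capitals mark matches to 6 motifs, searched on both strands. These were the M-CAT element of TEAD factors, spelled CATTCC, the site of GATA factors, spelled GATAAG, the site of AP-1, spelled TGANTCA, the core of the NFAT site, spelled GGAAA, and the CArG and MEF2 boxes by name. Among 32851 RefSeq windows of this length, 14.7% hold an M-CAT match, 7.44% the GATA site, 7.81% the AP-1 site, 61.3% an NFAT core, 1.63% a CArG box and 1.86% a MEF2 box. The Ankrd1 window is chr19:36119795-36120094 on the minus strand, the Xirp2 window chr2:67445752-67446051 on the plus strand, the Sprr1a window chr3:92485832-92486131 on the minus strand and the inner Rcan1 window chr16:92400029-92400328 on the minus strand.
Ankrd1: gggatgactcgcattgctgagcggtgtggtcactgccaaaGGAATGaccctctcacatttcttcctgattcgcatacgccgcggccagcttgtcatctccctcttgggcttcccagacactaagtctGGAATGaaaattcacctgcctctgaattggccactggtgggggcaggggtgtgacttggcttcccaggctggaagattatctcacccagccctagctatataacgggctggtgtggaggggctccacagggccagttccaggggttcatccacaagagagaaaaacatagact
Xirp2: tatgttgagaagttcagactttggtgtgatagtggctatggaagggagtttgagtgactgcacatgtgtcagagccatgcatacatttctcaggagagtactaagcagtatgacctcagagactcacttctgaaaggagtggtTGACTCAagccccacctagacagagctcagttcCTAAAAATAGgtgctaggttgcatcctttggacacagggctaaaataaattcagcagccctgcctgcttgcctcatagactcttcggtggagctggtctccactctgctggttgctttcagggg
Sprr1a: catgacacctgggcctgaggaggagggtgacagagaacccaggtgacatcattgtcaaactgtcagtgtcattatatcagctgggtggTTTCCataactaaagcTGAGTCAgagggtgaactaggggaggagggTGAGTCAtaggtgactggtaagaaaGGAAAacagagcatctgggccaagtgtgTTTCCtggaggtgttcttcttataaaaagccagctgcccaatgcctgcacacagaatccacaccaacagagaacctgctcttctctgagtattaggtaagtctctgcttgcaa
Rcan1, inner start: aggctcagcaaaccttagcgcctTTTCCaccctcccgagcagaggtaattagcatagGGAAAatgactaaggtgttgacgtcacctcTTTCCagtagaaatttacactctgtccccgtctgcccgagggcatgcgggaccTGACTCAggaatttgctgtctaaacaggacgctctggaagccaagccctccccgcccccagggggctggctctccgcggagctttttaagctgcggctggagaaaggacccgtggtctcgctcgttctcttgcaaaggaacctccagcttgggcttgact
The Ankrd1 window holds 2 M-CAT matches, with first bases at -210 and -123 from the start, and 1.36% of windows hold 2 or more. The 2 windows of Ankrd23, not shown, each hold an M-CAT match, at 37 and -120. The Xirp2 window holds 1 MEF2 box at -74 and 1 AP-1 match at -107. The Sprr1a window holds 2 AP-1 matches at -146 and -116, and 0.460% of windows hold 2 or more. It also holds 3 NFAT cores, at -162, -91 and -63. The inner Rcan1 window holds 3 NFAT cores at -227, -193 and -163 and 1 AP-1 match at -110, and 9.42% of windows hold 3 or more NFAT cores. The upstream Rcan1 window, at chr16:92466120-92466419 on the minus strand, holds no match to any of these 6. In the GENCODE annotation of GRCm38 the inner start lies in intron 1 of the Rcan1 transcripts that begin at the upstream start. The RefSeq start of the Ankrd1 window lies inside exon 1 of all 6 Ankrd1 transcripts there, not at their starts. The E-box CANNTG, found in 72.3% of windows, was searched as well and is not capitalised. A match says only that these letters are there.

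The libraries held 18.2 M reads and 14.3 M reads, all uniquely assigned, for infarcted and non-infarcted tissue labelled Neil3-/-, and 17.3 M reads and 14.9 M reads for infarcted and non-infarcted wild-type tissue. Neil3 itself had 763 and 391 reads in infarcted and non-infarcted tissue labelled Neil3-/-, against 155 and 62 reads in infarcted and non-infarcted wild-type tissue. Its reads are thus higher where a knockout is labelled, so the gene-level count does not check the genotype and "labelled Neil3-/-" is used throughout. Contractile genes marked all 4 libraries as heart muscle: 16 of 16 markers were found, and their summed level was 14980 and 41146 RPKM in infarcted and non-infarcted tissue labelled Neil3-/- and 22495 and 43324 RPKM in infarcted and non-infarcted wild-type tissue. Fewer muscle cells and less contractile RNA per muscle cell cannot be told apart in bulk tissue. RPKM scale reads to the length of the gene model and to the library total. With 1 library per group there is no spread between replicates, no p-value was computed, and each interval in parentheses is an exact 95% interval that covers counting error only.

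All 7 genes were well covered by reads, the shallowest value being 2405 reads for Sprr1a in non-infarcted wild-type tissue. Together they took 1.06% and 1.02% of reads in infarcted and non-infarcted tissue labelled Neil3-/-, and 1.32% and 1.06% in infarcted and non-infarcted wild-type tissue. Ankrd1 was the member with the most RPKM in 3 libraries, and Sprr1a in infarcted tissue labelled Neil3-/-. Xirp1 or Rcan1 had the fewest in each library.

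**Figure D1:**
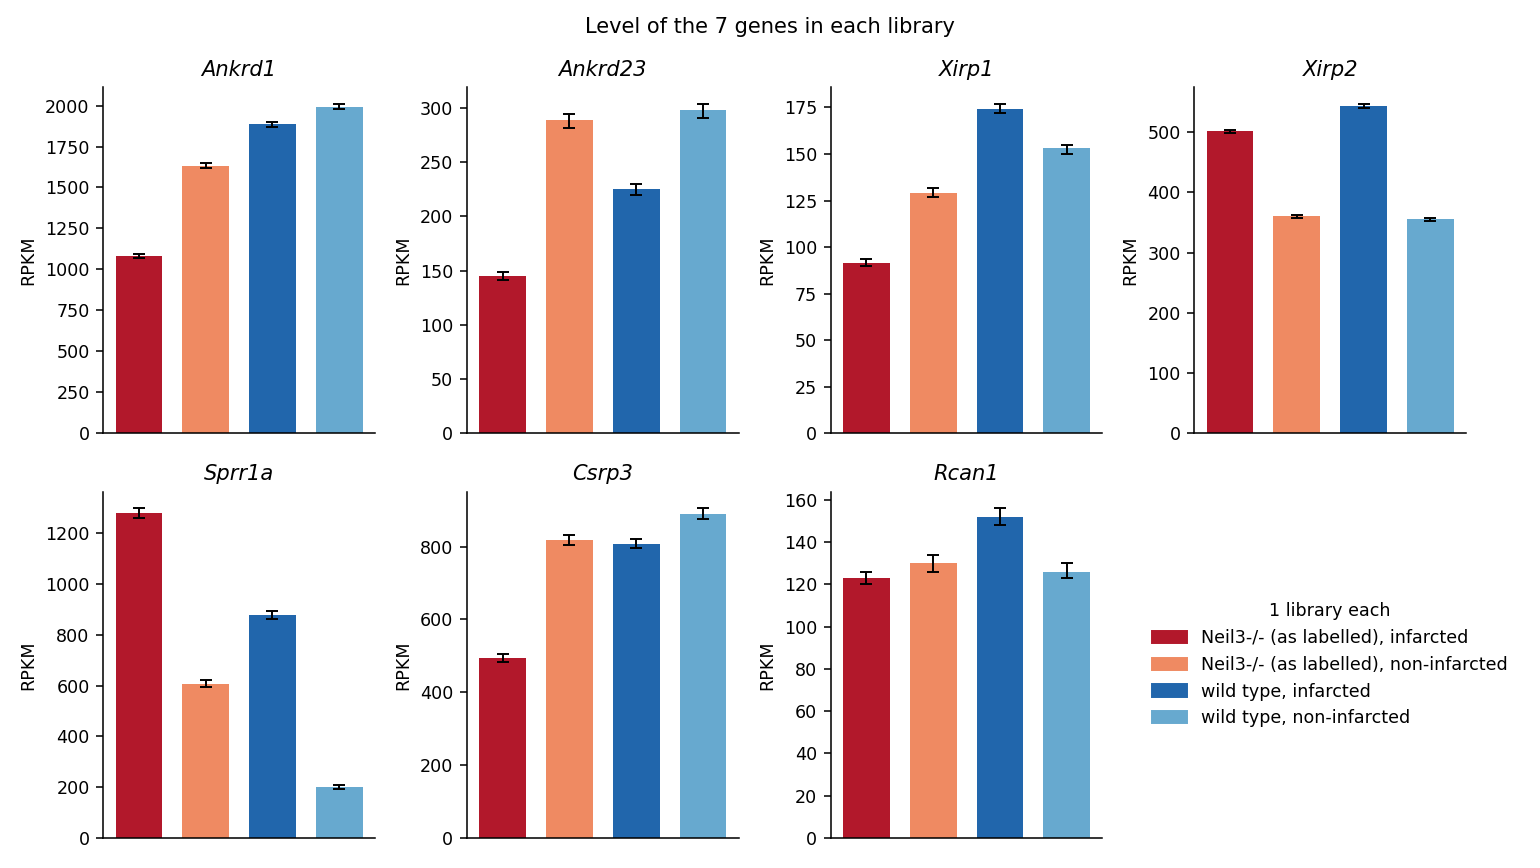
Level of each of the 7 genes in RPKM (vertical axes, each with its own range from 0) in the 4 libraries, 1 bar per library, with 95% counting intervals as whiskers. Sprr1a reached 1281 RPKM in infarcted tissue labelled Neil3-/- and 200 RPKM in non-infarcted wild-type tissue, while Rcan1 stayed between 123 and 152 RPKM.

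Among the titin-binding ankyrin repeat genes, Ankrd1 was at 1083 RPKM in infarcted and 1632 RPKM in non-infarcted tissue labelled Neil3-/-, and at 1885 RPKM in infarcted and 1994 RPKM in non-infarcted wild-type tissue. The infarcted library labelled Neil3-/- was the lowest of the 4, and the wild-type libraries lay close together. Infarcted tissue was thus 1.51-fold lower (1.49–1.53) where labelled Neil3-/- and 1.06-fold lower (1.05–1.07) in wild type. Ankrd23, which shares the titin-binding role, was at 145 RPKM in infarcted and 289 RPKM in non-infarcted tissue labelled Neil3-/-, and at 225 RPKM in infarcted and 298 RPKM in non-infarcted wild-type tissue. Both infarcted libraries were below both non-infarcted ones. Ankrd23 in infarcted tissue was 1.99-fold lower (1.92–2.06) where labelled Neil3-/- and 1.32-fold lower (1.28–1.36) in wild type. Per kilobase, Ankrd1 exceeded Ankrd23 within every library, by 7.49-fold and 5.66-fold in infarcted and non-infarcted tissue labelled Neil3-/- and by 8.37-fold and 6.70-fold in infarcted and non-infarcted wild-type tissue. That ratio does not depend on library scaling, and it was higher in infarcted tissue of both genotypes. In the GENCODE annotation of GRCm38, Ankrd23 shares 2109 exon bases with the gene Gm42417 on the same strand, which the files do not list, so reads of the pair may be counted as Ankrd23.

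The Xin genes differed from each other. Xirp2 was at 501 RPKM in infarcted and 360 RPKM in non-infarcted tissue labelled Neil3-/-, and at 543 RPKM in infarcted and 356 RPKM in non-infarcted wild-type tissue. Both infarcted libraries were above both non-infarcted ones, 1.39-fold (1.38–1.41) where labelled Neil3-/- and 1.53-fold (1.51–1.54) in wild type. Xirp1 was at 91.6 RPKM in infarcted and 129 RPKM in non-infarcted tissue labelled Neil3-/-, and at 174 RPKM in infarcted and 153 RPKM in non-infarcted wild-type tissue. Here the infarcted libraries were the lowest and the highest of the 4. Xirp1 was 1.41-fold lower (1.37–1.45) in infarcted tissue labelled Neil3-/- and 1.14-fold higher (1.12–1.17) in infarcted wild-type tissue, a direction that turned to 1.02-fold lower under TMM scaling and to 1.03-fold lower under median-ratio scaling. Within a library, Xirp2 exceeded Xirp1 per kilobase by 5.47-fold (5.36–5.59) and 2.78-fold (2.72–2.84) in infarcted and non-infarcted tissue labelled Neil3-/-, and by 3.11-fold (3.07–3.16) and 2.33-fold (2.29–2.37) in infarcted and non-infarcted wild-type tissue. Xirp2 shares 168 exon bases with the antisense gene Gm13601, which the files do not list either, and the sources used here do not say whether counting used strand. In that annotation the Xirp1 gene span overlaps Cx3cr1, a chemokine receptor gene of monocytes and macrophages on the same strand, with 0 exon bases shared. Cx3cr1 was at 16.3 and 9.44 RPKM in infarcted and non-infarcted tissue labelled Neil3-/-, and at 10.6 and 5.83 RPKM in infarcted and non-infarcted wild-type tissue.

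Csrp3, the Z-disc LIM protein gene, was at 494 RPKM in infarcted and 818 RPKM in non-infarcted tissue labelled Neil3-/-, and at 808 RPKM in infarcted and 890 RPKM in non-infarcted wild-type tissue. As for Ankrd1, the infarcted library labelled Neil3-/- stood below the other 3. Csrp3 was 1.65-fold lower (1.61–1.70) in infarcted tissue where labelled Neil3-/- and 1.10-fold lower (1.08–1.13) in wild type. Its reads covered 79.66% to 83.44% of the gene model, against at least 96.9% for the other 6 genes. The within-library ratio of Ankrd1 to Csrp3 was 2.19 and 2.0 in infarcted and non-infarcted tissue labelled Neil3-/- and 2.33 and 2.24 in infarcted and non-infarcted wild-type tissue, the narrowest range among the pairs of members set side by side here.

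Rcan1, the calcineurin inhibitor, was the most even of the 7 in level. It was at 123 RPKM in infarcted and 130 RPKM in non-infarcted tissue labelled Neil3-/-, and at 152 RPKM in infarcted and 126 RPKM in non-infarcted wild-type tissue. The wild-type infarcted library was the highest, and the counting intervals of the non-infarcted libraries, 126 to 134 RPKM where labelled Neil3-/- and 123 to 130 RPKM in wild type, overlapped. Infarcted tissue was 1.06-fold lower (1.02–1.10) where labelled Neil3-/- and 1.20-fold higher (1.16–1.25) in wild type. The gene-level values do not separate transcripts from the upstream and inner starts.

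Sprr1a had the widest range. It was at 1281 RPKM in infarcted and 608 RPKM in non-infarcted tissue labelled Neil3-/-, and at 877 RPKM in infarcted and 200 RPKM in non-infarcted wild-type tissue. Both infarcted libraries were above both non-infarcted ones, and within each kind of tissue the library labelled Neil3-/- was the higher. Infarcted tissue was 2.11-fold higher (2.05–2.16) where labelled Neil3-/- and 4.39-fold higher (4.20–4.58) in wild type. Only 23 of 12515 compared genes had a higher infarct ratio in wild type, against 850 of 12563 where labelled Neil3-/-. Sprr1a ranked 19 and 72 by RPKM among the genes of infarcted and non-infarcted tissue labelled Neil3-/-, and 41 and 327 in infarcted and non-infarcted wild-type tissue. Keratinocyte markers, the genes of the skin cell type in which Sprr1a is best known, were near 0: 5 of 8 were found, with a summed level of 1.47 and 1.56 RPKM in infarcted and non-infarcted tissue labelled Neil3-/- and 1.43 and 0.836 RPKM in infarcted and non-infarcted wild-type tissue.

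Each of the 12 monocyte and macrophage markers found had its 4 levels in the same order of libraries as Sprr1a, as did 24.0% of 12716 genes at 1 RPKM or more in a library. None of these 12 markers was at 0. Of 13 listed symbols only Adgre1 was not found, and that gene was found under its older symbol, Emr1. They summed to 2434 RPKM in infarcted and 1149 RPKM in non-infarcted tissue labelled Neil3-/-, and to 1744 RPKM in infarcted and 712 RPKM in non-infarcted wild-type tissue. Of the 10 fibroblast and myofibroblast markers, all found and none at 0, only 4 (Col1a1, Col1a2, Col3a1 and Fap) had that order. All 10 summed to 5739 RPKM in infarcted and 3116 RPKM in non-infarcted tissue labelled Neil3-/-, and to 4115 RPKM in infarcted and 2565 RPKM in non-infarcted wild-type tissue. Their part in the Sprr1a values was not tested. Neutrophil markers, 9 of 10 found, summed to 278 and 26.7 RPKM in infarcted and non-infarcted tissue labelled Neil3-/- and to 239 and 31.3 RPKM in infarcted and non-infarcted wild-type tissue, and Ngp had no read in at least 1 library. In this sum the wild-type non-infarcted library was not the lowest, as it was for Sprr1a. Of the 9 neutrophil markers found, 3 (S100a9, Csf3r and Mmp9) had the order of Sprr1a. The part of neutrophil markers in the Sprr1a values was not tested either.

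With a threshold of 2-fold for (RPKM + 1), over genes that reach 1 RPKM in a library compared, 1 of the 7 genes, Sprr1a, was higher in infarcted tissue labelled Neil3-/- and none was lower, where 8.20% of 12563 genes were higher and 6.07% lower. In wild type 1 of 7, again Sprr1a, was higher and none lower, where 6.21% of 12515 genes were higher and 3.60% lower. Where a fold of 1.5 is used, 3 genes (Ankrd1, Ankrd23 and Csrp3) were lower and 1 higher where labelled Neil3-/-, beside 12.4% of all compared genes lower and 25.0% higher. In wild type 2 genes (Sprr1a and Xirp2) were higher and none lower, beside 21.6% higher and 9.56% lower. The median log2 infarct ratio of the 7 genes was -0.49 where labelled Neil3-/-, against 0.24 for all compared genes, and 0.19 in wild type, against 0.21. TMM scaling shifts that median of all genes by -0.21 where labelled Neil3-/- and by -0.20 in wild type. Under it Sprr1a was 1.79-fold higher and Ankrd23 2.35-fold lower in infarcted tissue labelled Neil3-/-, so the count there became 0 higher and 1 lower. The shares of all genes called were not computed under that scaling.

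**Figure D2:**
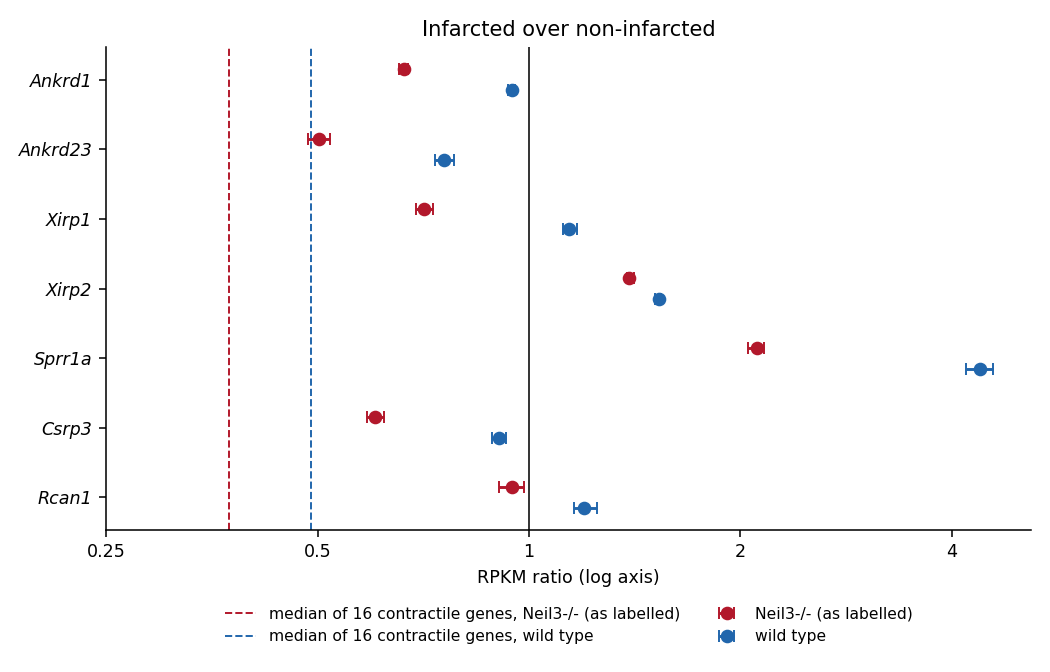
RPKM ratio of infarcted over non-infarcted tissue (log axis) for the 7 genes in the libraries labelled Neil3-/- and in wild type, with 95% counting intervals. Dashed lines mark the median of 16 contractile genes, and all 7 genes lie to the right of the line of their own genotype, as do 97.5% of compared genes where labelled Neil3-/- and 96.6% in wild type.

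Contractile genes were lower in infarcted tissue than nearly all other genes, so a level set against them is higher for most genes. The 16 contractile markers had a median log2 infarct ratio of -1.42 where labelled Neil3-/- and -1.03 in wild type. At least 2-fold lower were 15 of 16 where labelled Neil3-/- and 9 of 16 in wild type. All 7 genes lay above that median in both genotypes, as did 97.5% of all compared genes where labelled Neil3-/- and 96.6% in wild type. Relative to it, Ankrd23 was 1.35-fold higher where labelled Neil3-/- and 1.55-fold in wild type, the lowest of the 7. Xirp2 was 3.73-fold higher where labelled Neil3-/- and 3.12-fold in wild type, and Sprr1a 5.63-fold where labelled Neil3-/- and 8.92-fold in wild type. Per library, the level of Sprr1a came to 8.55% of the summed contractile RPKM in infarcted and 1.48% in non-infarcted tissue labelled Neil3-/-, and to 3.90% in infarcted and 0.462% in non-infarcted wild-type tissue. Ankrd1 came to 7.23% in infarcted and 3.97% in non-infarcted tissue labelled Neil3-/-, and to 8.38% in infarcted and 4.60% in non-infarcted wild-type tissue. Both infarcted libraries exceeded both non-infarcted ones in this share for all 7 genes, and for 91.6% of 12716 genes at 1 RPKM or more in a library, so neither count sets the 7 apart.

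**Figure D3:**
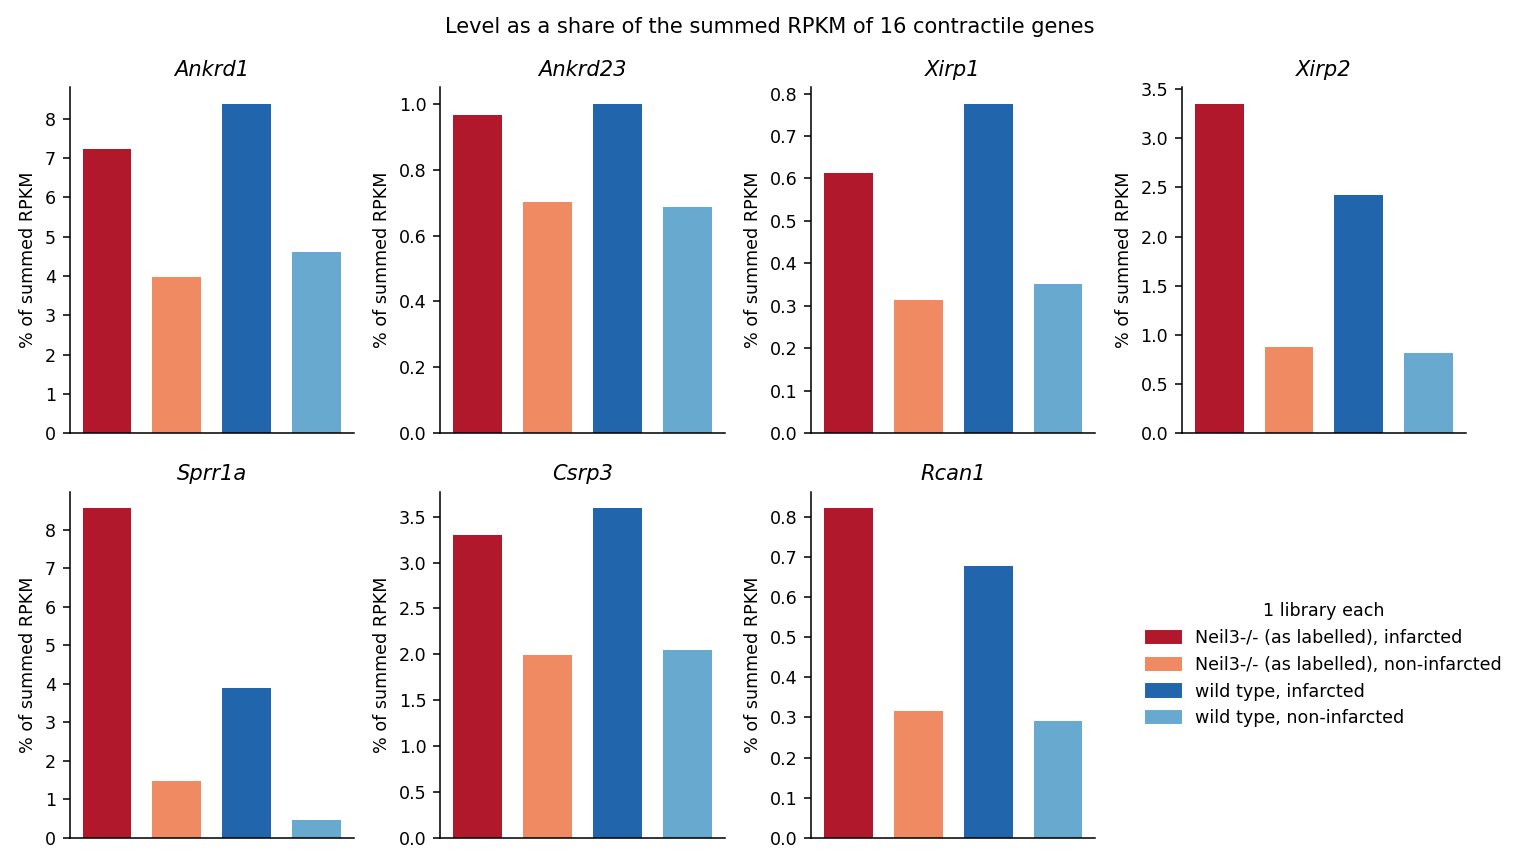
Level of each of the 7 genes as a percentage of the summed RPKM of 16 contractile genes (vertical axes, each from 0) in the 4 libraries, 1 bar per library. Every gene is higher in both infarcted libraries than in both non-infarcted ones, for example Xirp2 at 3.35% in infarcted against 0.874% in non-infarcted tissue labelled Neil3-/-, and at 2.42% in infarcted against 0.821% in non-infarcted wild-type tissue. The same holds for 91.6% of 12716 genes.

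Between the infarcted libraries, 4 of the 7 genes were at least 1.5-fold lower where labelled Neil3-/-, 2 were lower by less and Sprr1a was higher. Xirp1 was 1.90-fold lower (1.86–1.95), Ankrd1 1.74-fold lower (1.72–1.76), Csrp3 1.63-fold lower (1.59–1.68) and Ankrd23 1.56-fold lower (1.5–1.61) than in wild type. Rcan1 was 1.24-fold lower (1.19–1.28) and Xirp2 1.08-fold lower (1.08–1.09), while Sprr1a was 1.46-fold higher (1.43–1.49). No gene of the 7 reached 2-fold, where 0.249% of 12464 compared genes were higher and 0.241% lower, and at 1.5-fold 1.51% were higher and 1.55% lower. The median of the 7 log2 ratios was -0.63, against 0.02 for all compared genes and -0.59 for the contractile markers, of which 16 of 16 were below 0. Relative to that contractile median, Ankrd23 was at -0.04, Csrp3 at -0.11, Ankrd1 at -0.21 and Xirp1 at -0.33 on the log2 scale, Rcan1 at 0.29, Xirp2 at 0.48 and Sprr1a at 1.14.

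Between the non-infarcted libraries each of the 7 genes was within 1.22-fold of its wild-type level, apart from Sprr1a. It was 3.04-fold higher (2.90–3.18) in the library labelled Neil3-/- than in wild type, and 5 of 12226 compared genes had a higher ratio. Ankrd1 was 1.22-fold lower (1.21–1.24) and Xirp1 1.18-fold lower (1.15–1.21) where labelled Neil3-/-. Of compared genes, 96.4% had a higher ratio than Ankrd1 and 94.1% a higher ratio than Xirp1. Csrp3 was 1.09-fold lower (1.06–1.12) and Ankrd23 1.03-fold lower (1.0–1.06). Rcan1 was at a ratio of 1.03 (0.988–1.07) and Xirp2 at one of 1.01 (1.0–1.02). In this comparison 1 of 7 genes was at least 2-fold higher and none lower, where 0.254% of all compared genes were higher and 0.188% lower. At 1.5-fold the count was also 1 higher and none lower, where 1.14% were higher and 0.613% lower. The median of the 7 log2 ratios was -0.04 and that of all compared genes 0.01.

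**Figure D4:**
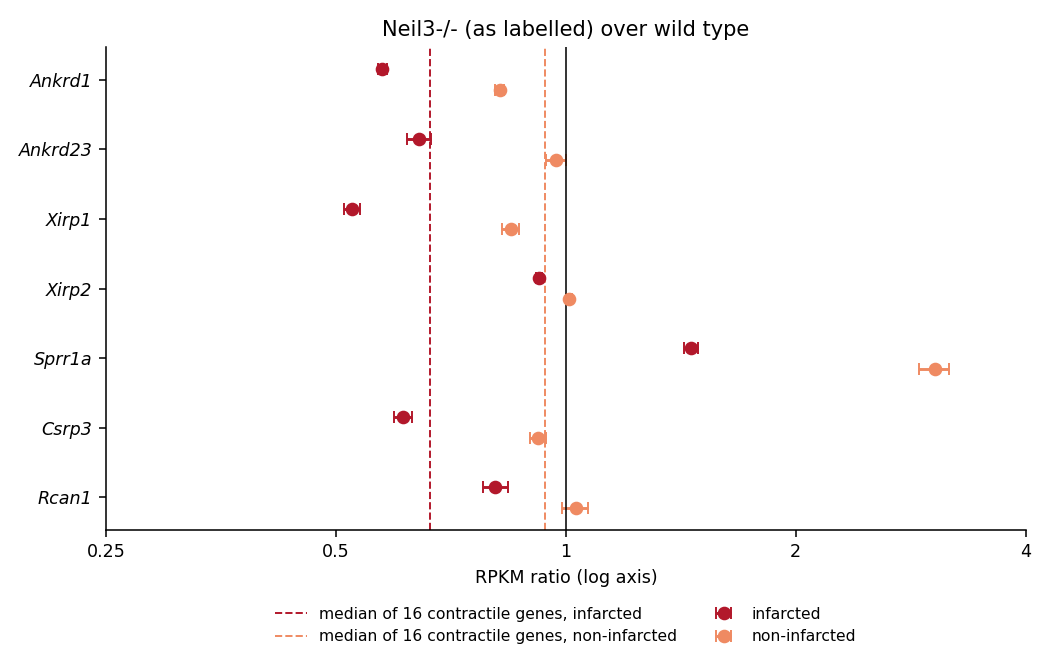
RPKM ratio of tissue labelled Neil3-/- over wild type (log axis) for the 7 genes, in infarcted and in non-infarcted tissue, with 95% counting intervals and dashed lines at the median of 16 contractile genes. In infarcted tissue Ankrd1, Ankrd23, Xirp1 and Csrp3 lie at 1.56-fold to 1.90-fold lower, and Sprr1a is to the right of 1 in both tissues.

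The infarct ratio of every one of the 7 genes was smaller where labelled Neil3-/- than in wild type. Contractile markers showed the same order in their median log2 infarct ratio, at -1.42 where labelled Neil3-/- and -1.03 in wild type. The share of all genes with a smaller ratio was not computed. Relative to the contractile median the order of the genotypes turned for Xirp2, as above, and for Rcan1, at 2.53-fold where labelled Neil3-/- and 2.46-fold in wild type. The ratio of both infarct ratios, with a 95% interval from the normal approximation to counting error, was 0.912 (0.900–0.925) for Xirp2, 0.784 (0.742–0.830) for Rcan1 and 0.702 (0.689–0.715) for Ankrd1. It was 0.666 (0.643–0.690) for Csrp3, 0.663 (0.632–0.694) for Ankrd23 and 0.620 (0.598–0.642) for Xirp1. Sprr1a had the lowest, at 0.480 (0.456–0.506), and it was also the gene whose non-infarcted levels lay farthest apart. On the log2(RPKM + 1) scale this difference reached 2-fold for 1 of 7 genes, beside 0.228% of 12716 genes at least 2-fold lower and 0.299% higher. With the contractile median set to 0 it reached 2-fold for 0 of 7, beside 0.0786% of genes lower and 0.991% higher. The median difference over all genes was 0.00. These values use the same libraries as the comparisons above and add no library to them.

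Relatives of the 7 genes in the same families did not follow one pattern. Of 5 compared, 1 was at least 2-fold higher and 1 lower in infarcted tissue where labelled Neil3-/-, and 2 were higher and none lower in wild type. Beside this count and those of the lists below, 8.20% of all compared genes were higher and 6.07% lower where labelled Neil3-/-. In wild type 6.21% were higher and 3.60% lower. Ankrd2, the third muscle ankyrin repeat gene, was at 3.20 RPKM in infarcted and 1.97 RPKM in non-infarcted tissue labelled Neil3-/-, and at 7.58 RPKM in infarcted and 2.62 RPKM in non-infarcted wild-type tissue. It was far below Ankrd1 and Ankrd23 per kilobase in every library, and its infarct ratio was 1.62 (1.04–2.58) where labelled Neil3-/- and 2.89 (2.04–4.16) in wild type. Csrp1, a LIM protein gene of smooth muscle, was 2.33-fold (2.21–2.46) higher where labelled Neil3-/- and 2.17-fold (2.05–2.30) higher in wild type in infarcted over non-infarcted tissue, while Csrp3 was lower in both. Csrp2 was 1.89-fold (1.74–2.06) higher where labelled Neil3-/- and 1.57-fold (1.43–1.74) higher in wild type. Rcan2, another calcineurin regulator, was at 93.0 RPKM in infarcted and 193 RPKM in non-infarcted tissue labelled Neil3-/-, 2.08-fold lower (2.01–2.15), and 1.61-fold lower (1.56–1.66) in infarcted wild-type tissue, so that it exceeded Rcan1 in non-infarcted tissue only. Of the other small proline-rich genes, Sprr2f had 9 and 1 reads in infarcted and non-infarcted tissue labelled Neil3-/- and 5 and 0 reads in infarcted and non-infarcted wild-type tissue. Sprr2h had 7 and 4 reads in infarcted tissue labelled Neil3-/- and infarcted wild-type tissue and none in non-infarcted tissue.

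Most titin and Z-disc partners were lower in infarcted tissue, and the partners of the Xin proteins were divided. Of 17 titin and Z-disc partners compared, 10 where labelled Neil3-/- and 6 in wild type were at least 2-fold lower and none was higher, with medians of -1.23 where labelled Neil3-/- and -0.84 in wild type. In wild type 3 of the 17 (Des, Flnc and Cryab) were above 0, and none was where labelled Neil3-/-. Ttn, Tcap, Ldb3 and Myoz2 are also contractile markers, so this list partly repeats that one. Tcap, whose product caps titin, was 5.80-fold (5.49–6.12) lower where labelled Neil3-/- and 3.96-fold (3.78–4.15) lower in wild type. Titin itself, Ttn, was 2.72-fold (2.69–2.75) lower where labelled Neil3-/- and 2.5-fold (2.48–2.53) lower in wild type, the Z-disc gene Myot 4.15-fold (3.71–4.65) lower where labelled Neil3-/- and 3.71-fold (3.21–4.30) lower in wild type, and Nebl 2.36-fold (2.19–2.55) lower where labelled Neil3-/- and 2.60-fold (2.41–2.82) lower in wild type. The intercalated disc and actin partners of the Xin proteins had medians of -0.21 where labelled Neil3-/- and -0.06 in wild type, with 6 above and 8 below 0 where labelled Neil3-/- and 7 above and 7 below 0 in wild type. At least 2-fold lower were 2 of 14 in each genotype, and none was higher. These were Fhl2 and Ctnna3. Fhl2, a LIM protein gene of heart muscle, was 4.28-fold (4.15–4.42) lower where labelled Neil3-/- and 2.80-fold (2.72–2.87) lower in wild type. Ctnna3, the alpha-T-catenin of the intercalated disc, was 2.68-fold (2.32–3.11) lower where labelled Neil3-/- and 2.59-fold (2.26–2.99) lower in wild type. Nrap was 1.94-fold (1.90–1.99) lower where labelled Neil3-/- and 1.44-fold (1.41–1.47) lower in wild type, and Vasp, which promotes actin filament growth, 1.76-fold (1.65–1.88) higher where labelled Neil3-/- and 1.92-fold (1.79–2.05) higher in wild type.

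**Figure D5:**
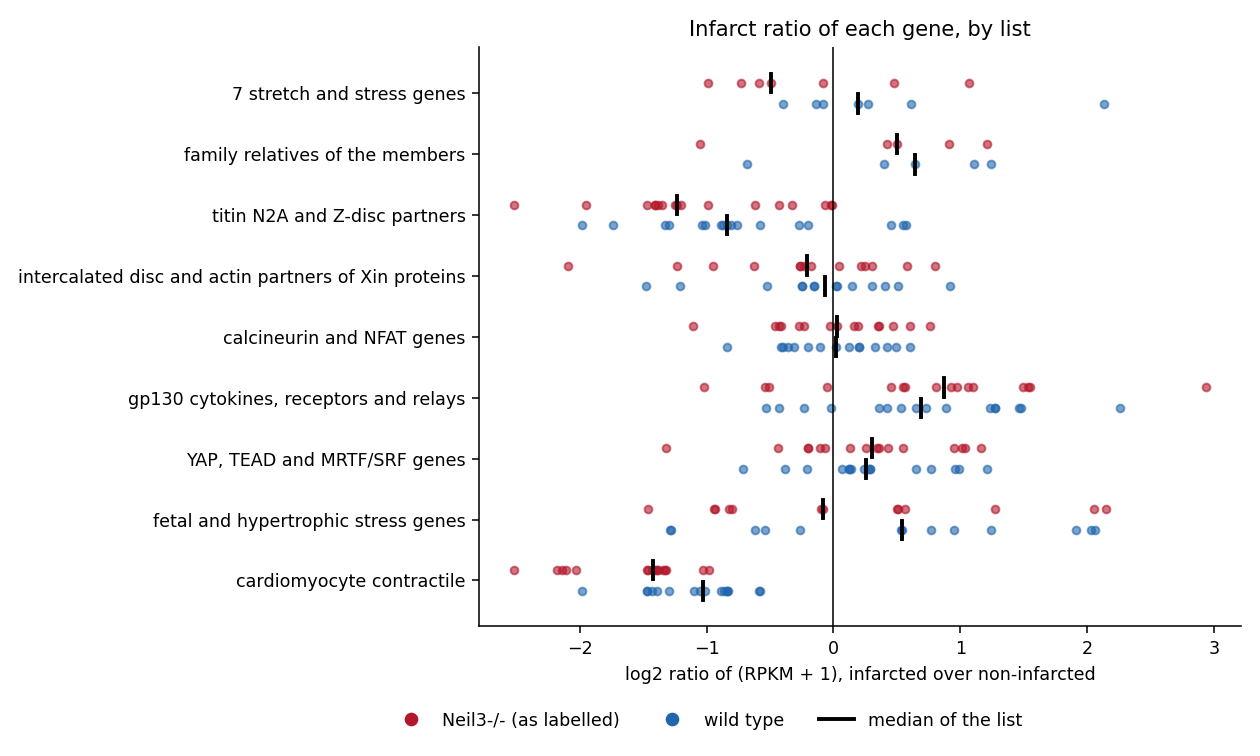
Log2 ratio of (RPKM + 1) in infarcted over non-infarcted tissue for each compared gene of 9 lists, in the libraries labelled Neil3-/- and in wild type, with the median of each list as a bar. The medians run from -1.42 for contractile genes where labelled Neil3-/- to 0.87 for gp130 genes where labelled Neil3-/-.

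Genes known to act upstream or alongside the 7 genes varied by pathway. Of 16 genes of gp130 cytokines, receptors and relays, 6 passed 2-fold upward in infarcted tissue of each genotype, and 1 where labelled Neil3-/- and none in wild type were lower, with medians of 0.87 where labelled Neil3-/- and 0.69 in wild type. The cytokine Il6 was at 14.6 RPKM in infarcted and 1.03 RPKM in non-infarcted tissue labelled Neil3-/-, and at 10.3 RPKM in infarcted and 1.36 RPKM in non-infarcted wild-type tissue. Il11 was 6.0-fold (3.61–10.6) higher where labelled Neil3-/- and 7.12-fold (3.90–14.2) higher in wild type, Clcf1 3.64-fold (2.35–5.86) higher where labelled Neil3-/- and 3.32-fold (2.31–4.87) higher in wild type, and Socs3, an inhibitor that the pathway itself induces, 3.10-fold (2.80–3.43) higher where labelled Neil3-/- and 2.52-fold (2.28–2.78) higher in wild type.

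Calcineurin and NFAT genes were nearly balanced, with medians of 0.03 where labelled Neil3-/- and 0.02 in wild type. Of 15 compared, 1 was at least 2-fold lower where labelled Neil3-/- and none in wild type, and none was higher. That gene, Akap6, which anchors signalling enzymes at the nuclear envelope of heart muscle cells, was 2.25-fold (2.14–2.36) lower where labelled Neil3-/- and 1.83-fold (1.76–1.92) lower in wild type. Nfatc4 was 1.96-fold (1.62–2.38) higher where labelled Neil3-/- and 1.47-fold (1.21–1.79) higher in wild type, and Nfatc3 1.56-fold (1.44–1.68) higher where labelled Neil3-/- and 1.44-fold (1.33–1.56) higher in wild type. In the list of YAP, TEAD and MRTF/SRF genes, 3 of 16 were at least 2-fold higher and 1 lower where labelled Neil3-/-, and 1 was higher and none lower in wild type, with medians of 0.30 where labelled Neil3-/- and 0.26 in wild type. Known YAP targets, as Ankrd1 is, include Cyr61 and Ctgf. Cyr61 was 2.26-fold (2.14–2.39) higher in infarcted tissue where labelled Neil3-/- and 2.33-fold (2.22–2.46) higher in wild type, and Ctgf 2.01-fold (1.96–2.07) higher where labelled Neil3-/- and 1.94-fold (1.90–1.99) higher in wild type, whereas Ankrd1 was lower in both. Myocd, a muscle cofactor of SRF, was 2.69-fold (2.46–2.94) lower where labelled Neil3-/- and 1.68-fold (1.56–1.80) lower in wild type, and Tead2 2.25-fold (1.89–2.69) higher where labelled Neil3-/- and 2.19-fold (1.82–2.65) higher in wild type.

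Fetal and hypertrophic stress genes had medians of -0.08 where labelled Neil3-/- and 0.54 in wild type, and of 13 compared 3 were at least 2-fold higher and 1 lower where labelled Neil3-/-, and 4 higher and 2 lower in wild type. Timp1, an inhibitor of matrix metalloproteinases, was 4.47-fold (4.26–4.70) higher where labelled Neil3-/- and 4.20-fold (4.0–4.42) higher in wild type. Between the infarcted libraries 3 of 13 (Nppb, Myh7 and Ankrd2) were at least 2-fold lower where labelled Neil3-/- and none higher, with a median of -0.50. Of all compared genes there, 0.241% were lower and 0.249% higher. Nppb, the brain natriuretic peptide gene, is often read beside Ankrd1 as a stretch marker. The within-library ratio of Ankrd1 to Nppb was 2.07 (2.02–2.12) and 2.91 (2.83–2.98) in infarcted and non-infarcted tissue labelled Neil3-/-, and 1.47 (1.45–1.5) and 2.66 (2.60–2.72) in infarcted and non-infarcted wild-type tissue.

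Likeness between profiles was measured as the Euclidean distance between log2(RPKM + 1) values centred on their mean over the 4 libraries, so a small distance means like ratios among libraries. Among the 7, Ankrd1 and Csrp3 were nearest to each other, at 0.165, and Ankrd23 and Sprr1a farthest apart, at 2.705. Candidates had 5 RPKM or more in a library and no provisional or small RNA name, 9238 genes with the 7 counted. Outside the 7, the nearest to Ankrd1 were Fgf18 (0.111), Gbe1 (0.117) and Gata4 (0.119). Among those nearest to Csrp3 were Gata4 (0.072) and Cyp4b1 (0.083). Ankrd23 lay nearest to Vegfa (0.044), Tmem182 (0.049) and Speg (0.065), and Xirp1 to Hspb2 (0.050), Slc29a2 (0.163) and Ehd4 (0.220). Xirp2 lay nearest to Wtip (0.025), Tnfaip1 and Gnb2 (0.026 each), and Rcan1 to Lrfn4 (0.018), Nob1 (0.026) and Nme6 (0.029). Sprr1a had no gene as near: Serpinb1a stood at 0.285, Sla at 0.50 and Gpnmb at 0.525. Serpinb1a was at 75.9 and 32.6 RPKM in infarcted and non-infarcted tissue labelled Neil3-/-, and at 44.4 and 12.6 RPKM in infarcted and non-infarcted wild-type tissue. With 4 libraries, many genes take like profiles, and these distances are a description.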

How the data were processed

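Read counts per gene, with gene length and coverage, were deposited by the authors for 4 libraries, 1 per group; per the file headers they are uniquely assigned reads. The deposited RPKM equal reads divided by length and library total. Coverage was deposited as a percent of the gene model. The submitters' processing notes name mm9; the sources used here do not give the aligner, counter or annotation. Genes not listed were taken as 0 reads.

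Ratios of RPKM carry exact Clopper-Pearson intervals of the read share (scipy 1.17.1). Calls use log2(RPKM + 1), at least 1 RPKM in a library compared and a fold of 2. TMM factors came from edgeR 4.0.16 and median-ratio factors from DESeq2 1.42.0. No test was run. Calls and intervals were checked on reads simulated with counting error only. That check holds no spread between mice and cannot speak to it.

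The 7 genes and the lists (7 pathway, 9 cell type) were chosen with earlier results of these data known. Named genes are the 7, from each pathway list up to 4 with the largest absolute log2 infarct ratio averaged over both genotypes, and the 3 nearest profiles per member, leaving out provisional and small RNA names. Nppa, Nppb, Des, Flnc, Cryab, Ldb3, Myoz2, the Sprr2 genes, cell type markers such as Ngp and the overlapping genes fall outside that rule. They were named after their values were seen. Some genes that the rule names are not reported here. The alternatives are compared below.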

Additional observations from a re-analysis of the deposited data

Results flagged for a closer look

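Xirp1 and Rcan1 had infarct ratios in opposite directions in the 2 genotypes. For Xirp1 the ratio of infarcted over non-infarcted tissue was 0.709 where labelled Neil3-/- and 1.14 in wild type. For Rcan1 it was 0.945 where labelled Neil3-/- and 1.20 in wild type. With 1 library per group the difference between genotypes was not tested. The ratio of Xirp1 in wild type fell below 1 under TMM and median-ratio scaling, at 0.979 and 0.973, while that of Rcan1 remained above 1 in wild type, at 1.03 and 1.02, and below 1 where labelled Neil3-/-, at 0.802 and 0.789. With the median of the contractile genes set to 0, both genes were above 1 in both genotypes, Xirp1 at 1.90 where labelled Neil3-/- and 2.33 in wild type and Rcan1 at 2.53 where labelled Neil3-/- and 2.46 in wild type.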

How the results depend on the processing

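The counts of the 7 genes past 2-fold were the same without a pseudocount, with a pseudocount of 0.1 RPKM, without a filter, with a filter at 5 RPKM and with 1 length per gene. In infarcted tissue labelled Neil3-/- the count of higher genes became 0 and that of lower genes 1 under both TMM and median-ratio scaling, and the count of lower genes 1 when the library total left out mitochondrial and ribosomal RNA and the 10 genes with most reads. The shares of all genes called were not computed under these settings, and the cause was not tested. At a fold of 1.5 more genes are called by construction. In the infarct comparisons 3 genes were lower where labelled Neil3-/-, beside 12.4% of all compared genes, and 2 higher in wild type, beside 21.6%. Between infarcted libraries 4 were lower, beside 1.55%. Infarct ratios differed between genotypes for 4 genes, and the share of all genes was not computed for this at that fold. With the median of the contractile genes set to 0, the counts of higher genes became 3 of 7 in the infarct comparison where labelled Neil3-/-, beside 83.7% of all genes, 4 of 7 in that of wild type, beside 69.5%, and 1 between infarcted libraries, beside 4.85%, and 0 infarct ratios differed by 2-fold. Ratios given here for that setting were taken without the added 1 RPKM, so they can differ slightly from the values relative to the contractile median above. That setting turned the infarct ratios to 1.78 for Ankrd1, 1.34 for Ankrd23, 1.62 for Csrp3, 1.90 for Xirp1 and 2.53 for Rcan1 where labelled Neil3-/-, and to 1.93 for Ankrd1, 1.55 for Ankrd23 and 1.85 for Csrp3 in wild type. It also turned the ratios of libraries labelled Neil3-/- over wild type of Xirp2 (1.39) and Rcan1 (1.22) in infarcted and of Ankrd23 (1.04) in non-infarcted tissue. The infarct ratio of Xirp1 in wild type turned to 0.979 under TMM and 0.973 under median-ratio scaling. No replicate could be left out, and no paired analysis was possible because each group has 1 library.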

Other observations

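Skeletal muscle markers were low, with 9 of 10 found and a summed level of 10.4 and 6.82 RPKM in infarcted and non-infarcted tissue labelled Neil3-/-, and 6.35 and 5.75 RPKM in infarcted and non-infarcted wild-type tissue. Endothelial markers, 8 of 8 found, had a median log2 infarct ratio of 0.53 where labelled Neil3-/- and 0.57 in wild type, and smooth muscle and pericyte markers, 8 of 8 found, of 0.49 where labelled Neil3-/- and 0.52 in wild type. Atrial markers, 5 of 6 found, had medians of -1.69 where labelled Neil3-/- and -3.15 in wild type, and differed between the non-infarcted libraries with a median of -1.47, where 3 of 5 were at least 2-fold lower in the library labelled Neil3-/-.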
